A study of Mus musculus with 8 samples.

Results

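The myosin heavy chain genes of skeletal muscle were examined for open chromatin in mouse gastrocnemius, a calf muscle. The set held 8 genes, and its members were the regions of the deposited ATAC-seq table that carry the symbol Myh4, Myh1, Myh2, Myh13, Myh7, Myh7b, Myh3 or Myh8. These were 158 regions out of 489637. ATAC-seq uses a transposase that cuts and tags accessible DNA, so a region's signal counts how often that stretch was open in the nuclei of a sample. The series held 8 libraries at a labelled time of 6 months, which the labels do not define further. All 8 carry the genotype Cre+:iMSBmal1 fl/fl, in which the clock gene Bmal1 is flanked by sites for the Cre recombinase. The 4 Vehicle libraries received vehicle and the 4 iMSBmal1KO libraries received Tamoxifen, which triggers Cre to delete Bmal1. Tamoxifen and loss of Bmal1 therefore cannot be told apart here. The labels give neither the promoter that drives Cre nor the deleted exon, and they do not say whether replicates were separate mice, so p-values measure the spread between these samples only. Each sample was made from the nuclei of whole muscles, fibre nuclei together with those of other cells, so fewer open nuclei of a type and less opening per nucleus cannot be told apart.

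Myosin heavy chains are the motor proteins of the thick filament, and the isoform a fibre carries sets how fast it shortens. Myh4, Myh1 and Myh2 encode the adult fast chains IIb, IIx and IIa. Myh7 encodes the slow chain of type I fibres and of the heart, and Myh7b a slow-tonic relative whose gene also hosts a microRNA. Myh3 and Myh8 encode the embryonic and perinatal chains, which developing and regenerating fibres use, and Myh13 the chain of extraocular muscle. In mouse gastrocnemius most fibres are known to be of the fast IIb type. Of these genes 6 form a cluster on chromosome 11 in the order Myh3, Myh2, Myh1, Myh4, Myh8 and Myh13, Myh7 lies on chromosome 14 and Myh7b on chromosome 2. The interval between Myh3 and Myh2 is known to hold an enhancer shared by the fast genes.

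The DNA just upstream of the start sites is shown for 5 genes, because 3 of them share a motif, Myh2 lacks it, and Myh7b carries the E-box that BMAL1 is known to bind. Each sequence is the 250 bases before the RefSeq start on GRCm38.p6, read 5′ to 3′ on the plus strand, and all 8 genes had an entry. Capitals mark matches on either strand to the TATA motif TATAAA, the E-box CANNTG, the MCAT motif CATTCC, the MEF2 site and the CArG box.
Myh4 (chr11:67237562-67237811): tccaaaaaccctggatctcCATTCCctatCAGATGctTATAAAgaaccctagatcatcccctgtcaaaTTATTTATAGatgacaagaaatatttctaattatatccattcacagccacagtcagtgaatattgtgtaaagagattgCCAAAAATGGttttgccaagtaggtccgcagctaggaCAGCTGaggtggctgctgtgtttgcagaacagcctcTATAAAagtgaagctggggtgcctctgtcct
Myh1 (chr11:67199852-67200101): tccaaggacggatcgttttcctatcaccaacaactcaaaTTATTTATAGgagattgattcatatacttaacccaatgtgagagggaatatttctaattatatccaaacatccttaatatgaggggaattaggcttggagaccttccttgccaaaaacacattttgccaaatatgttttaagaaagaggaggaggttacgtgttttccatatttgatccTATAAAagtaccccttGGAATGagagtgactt
Myh8 (chr11:67276874-67277123): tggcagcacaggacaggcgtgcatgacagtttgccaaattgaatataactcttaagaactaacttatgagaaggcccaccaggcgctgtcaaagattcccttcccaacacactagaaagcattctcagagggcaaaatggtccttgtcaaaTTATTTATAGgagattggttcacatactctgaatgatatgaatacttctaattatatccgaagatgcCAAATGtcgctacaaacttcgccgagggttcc
Myh2 (chr11:67170777-67171026): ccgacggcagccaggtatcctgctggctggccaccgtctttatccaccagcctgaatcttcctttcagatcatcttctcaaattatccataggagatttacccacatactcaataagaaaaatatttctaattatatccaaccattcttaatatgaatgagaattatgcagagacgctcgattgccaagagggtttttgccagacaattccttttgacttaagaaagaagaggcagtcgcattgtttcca
Myh7b (chr2:155610993-155611242): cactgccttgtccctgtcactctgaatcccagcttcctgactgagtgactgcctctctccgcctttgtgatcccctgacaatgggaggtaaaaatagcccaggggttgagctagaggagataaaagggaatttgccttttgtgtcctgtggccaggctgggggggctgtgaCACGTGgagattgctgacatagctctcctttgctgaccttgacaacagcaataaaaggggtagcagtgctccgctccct
The same MEF2 site, TTATTTATAG, was found before Myh4, Myh1 and Myh8, ending 172, 201 and 89 bases before the start. MEF2 factors are regulators of muscle genes, and 1.69% of all 32851 upstream windows of this length held a match. Those sites contain TATAAA on the other strand, a motif held by 12.4% of windows. A further TATAAA ended 25 bases before the start of Myh4, 26 before Myh1 and 23 before Myh3. Myh4 also held the CArG box CCAAAAATGG, which 1.47% of windows held. CATTCC, the core bound by TEAD factors, was found before Myh4, Myh1 and Myh7 and in 12.6% of all windows. CACGTG, which is also a CANNTG, was found before Myh7b alone of the 8 genes and in 6.02% of all windows. CANNTG was found before 6 of the 8 genes and in 66.2% of all windows, AGGTCA before Myh7b and in 14.0%, and TCAGGTT before none of the 8 and in 3.49%. The Myh2 window held none of the 8 motifs. A match of letters does not show that a factor was bound there.

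Depth and quality differed between libraries before any comparison. The deposited signal was close to whole multiples of a constant per library, and dividing by it gave 4.31 to 19.7 M read equivalents (M, units of 1e+06) in the Vehicle and 11.2 to 29.5 M in the iMSBmal1KO libraries. Vehicle 4 stood apart: it was the shallowest, 16.5% of its read equivalents were mitochondrial against 1.11% to 5.51% elsewhere, and its correlation with other libraries was at most 0.85. The main counts, and the differences it moved most, are therefore also given without it. Arntl, the symbol of Bmal1 in the table, had a summed signal of 2688, 2248, 2557 and 1942 in the Vehicle and 3023, 3421, 3154 and 3315 in the iMSBmal1KO libraries (limma adjusted p = 0.374), which checks no label because the deleted exon is not given. Defining fibre genes were open, with a median promoter signal of 2060 over 8 myofibre markers. The medians were 31.7 over endothelial, 53.0 over fibro-adipogenic and 4.53 over macrophage markers, and the cardiac markers Myh6, Nppa and Tbx5 had no promoter region.

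In the Vehicle libraries Myh4 was by far the most open of the 8 genes. Its regions summed to a signal of 1607, 1385, 1181 and 600 in Vehicle 1 to 4, the lowest value being that of the shallow library. Divided by gene length this was 52.7 ± 19.1 per kb (SD, n = 4). Myh1 followed with 21.5 ± 4.17 per kb. Myh7b (7.75 ± 0.674), Myh3 (6.09 ± 0.379) and Myh2 (4.87 ± 0.238) came next, with ranges over libraries that did not overlap. Myh13 (1.68 ± 0.151), Myh8 (1.28 ± 0.264) and Myh7 (0.921 ± 0.433) were lowest. Myh4 lay above Myh1 in every Vehicle library, and Myh1 above all of the remaining 6. Myh13 (1.46 to 1.80 per kb over the Vehicle libraries) lay just above Myh8 (0.880 to 1.42). Myh8 and Myh7 (0.30 to 1.31) overlapped, so these 2 neighbours did not differ beyond their spread. Among 14548 genes of at least 10 kb, Myh4 stood at percentile 95.0 for signal per kb, Myh1 at 81.7, Myh2 at 49.7 and Myh7 at 23.4.

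**Figure D1:**
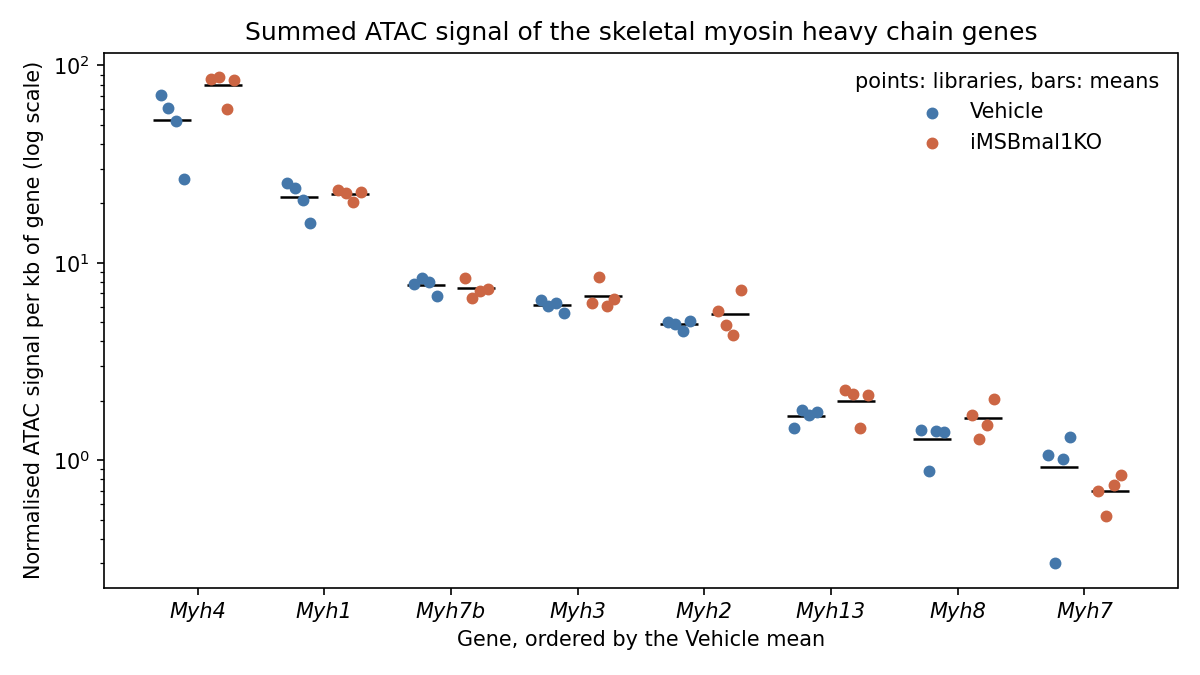
Summed ATAC signal per kb of gene (log scale) for the 8 genes, ordered by the Vehicle mean. Each point is a library (4 Vehicle, 4 iMSBmal1KO) and each bar a group mean. Myh4 and Myh1 lie above the other genes in every library, and the lowest Myh4 point belongs to Vehicle 4.

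Ratios of summed signal within each library put the fast genes at different levels. These ratios are not per length, and the genes span 22.6 kb (Myh4), 24.5 kb (Myh1), 26.5 kb (Myh2) and 23.9 kb (Myh7). The log2 ratio of Myh1, the IIx gene, over Myh4, the IIb gene, averaged -1.11 ± 0.34 in Vehicle. Myh2, the IIa gene, stood -3.12 ± 0.65 log2 units from Myh4. Against the slow gene Myh7, Myh4 was higher by 5.97, 7.59, 5.61 and 4.26 log2 units. These wide values rest on few reads, since Myh7 held only 7 to 38 read equivalents per Vehicle library. The developmental genes Myh3 and Myh8 together stood -3.26 ± 0.44 log2 units from the summed adult fast genes. Within the developmental pair, Myh3 had the higher level per kb in each library.

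How the open DNA was laid out also differed. Regions listed under Myh4 covered 27.5% of the gene, more than in 99.8% of the ranked genes. Coverage was 12.5% for Myh1, 10.2% for Myh2 and 9.31% for Myh7b. It was 7.81% for Myh3, 4.28% for Myh8, 2.41% for Myh7 and 1.93% for Myh13. Myh4 had 63 regions with a median length of 83.0 bp, 23 of which abutted the region before, and the strongest, in coding exon 10 (chr11:67244708-67244977), held 9.69% of the gene's signal. In Myh1 a single region of 601 bp listed at coding exon 7 (chr11:67204619-67205219), chosen after its values were seen, held 66.2% of the signal. Its values were 431, 406, 299 and 260 in Vehicle 1 to 4 and 364, 420, 305 and 335 in iMSBmal1KO 1 to 4, so the groups overlapped. Each region carries a single section label and can reach past the exon or intron named. The region that abuts this Myh1 region is listed at intron 8. By section label, regions listed at coding exons carried most of the Myh4 signal, 905 ± 341 of 1193 ± 432, and those at introns 242 ± 72.9. In Myh3 regions listed at introns carried more (85.7 ± 22.4) than those at coding exons (35.8 ± 11.7). Coding sequences of these paralogues are alike, and how reads that match several of them were counted is not given in the sources used here, so exon values of single genes are uncertain.

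At the start sites Myh4 again had the highest signal. The region across the Myh4 start (chr11:67237500-67237890), which covers the whole upstream sequence printed above, had a signal of 676, 574, 354 and 303 in Vehicle 1 to 4. The table lists it under Myhas, the antisense transcript that begins next to Myh4, so choosing regions by symbol misses it, and ATAC-seq does not tell strands apart. To include such regions, promoter signal was summed over all regions within 1000 bp of any listed start of a gene, and 4 of the 15 regions of Myh4 carried another symbol. Per covered kb the Vehicle promoter signal was 445 ± 144 for Myh4 and 74.3 ± 13.9 for Myh1. It was 66.8 ± 9.38 for Myh7b, 57.1 ± 50.5 for Myh7, 48.0 ± 25.5 for Myh2 and 37.5 ± 14.6 for Myh8. The Myh7 mean rested on Vehicle 4, with 131 per covered kb there against 18.5 to 44.7 in the other Vehicle libraries. Only Myh4 stood clear of the rest in every library. Myh3 and Myh13 had no region in that window. The strongest start regions of the other genes were weak, at 9.54 ± 8.43 for Myh7 (chr14:54995000-54995166), 8.98 ± 4.77 for Myh2 (chr11:67170978-67171164), 16.2 ± 4.16 for Myh1 (chr11:67199846-67199998) and 9.45 ± 3.76 for Myh8 (chr11:67280177-67280294, at a coding exon near a listed start).

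Most of the signal of the chromosome 11 cluster lay between the genes. From the start of Myh3 to the end of Myh13 there were 108 regions with another symbol or none, and their Vehicle signal summed to 8573 ± 1993. The interval between Myh3 and Myh2 alone held 5921 ± 1232 in 58 regions, more than any of the 8 genes. Its 3 strongest regions were at the end of 2310065F04Rik, a noncoding RNA gene also known as linc-Myh, at chr11:67114934-67115419 (1175 ± 242), at its start at chr11:67120745-67121234 (917 ± 176), and in unannotated DNA at chr11:67105792-67106213 (726 ± 151). In the iMSBmal1KO libraries these 3 stood at 1112, 862 and 663, with overlapping groups. The interval downstream of Myh4, up to Myh8, held 1447 ± 541 in 20 regions.

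The comparison of iMSBmal1KO with Vehicle asked whether this picture differed between the groups. No region of any of the 8 genes passed the threshold. Of the 158 member regions 66 had enough signal to be tested, and 0 reached an adjusted p under 0.05 in limma, against 110 of 124901 tested regions overall (0.0881%). The smallest adjusted p was 0.349. At an unadjusted p under 0.05, 18 of the 66 were higher and 2 lower in iMSBmal1KO, where 6.59% and 2.63% of all tested regions were. The groups did not overlap in 6 regions that were higher, against 3.62% of all tested regions, and in 1 that was lower, against 1.87% of all. A positive log2 difference was found in 56 of 66 and in 62.0% of all tested regions, and the median was 0.60 against 0.12. Without Vehicle 4, 8 were higher and 1 lower at an unadjusted p under 0.05, and the median was 0.31 against 0.04 over all tested regions. Neighbouring regions of a gene are not independent, and 44 of the 66 belonged to Myh4. None of the 3 regions of Myh7 and none of the 10 of Myh8 had enough signal for the test.

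**Figure D2:**
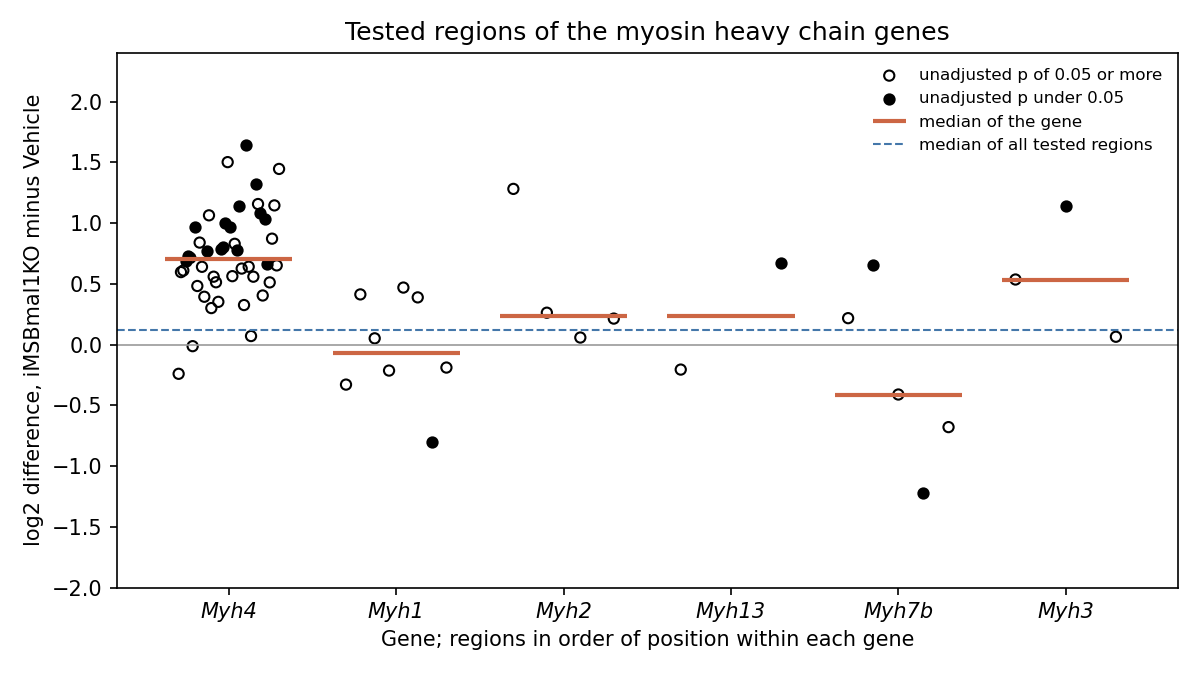
Log2 difference between iMSBmal1KO and Vehicle for the 66 tested regions, by gene and in order of position. Filled points have an unadjusted p under 0.05, bars are the medians of each gene and the dashed line is the median of all tested regions, 0.12. The Myh4 median is 0.70, that of Myh1 -0.07 and that of Myh7b -0.41, and no point passed the adjusted threshold.

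Myh4 had the largest difference in level among the 8 genes with all libraries included, and it did not pass. The summed signal was 1607, 1385, 1181 and 600 in Vehicle and 1941, 1972, 1361 and 1913 in iMSBmal1KO. Of the iMSBmal1KO libraries 3 lay above all Vehicle libraries, and iMSBmal1KO 3 lay among them. The log2 difference was 0.66 ± 0.25 (SE), with an unadjusted p of 0.0171 and a limma adjusted p of 0.50 over 22224 genes, of which 0.130% passed and 7.61% were higher at an unadjusted p under 0.05. No member gene separated the groups upward on summed signal, where 3.69% of all genes did. Without Vehicle 4 the Myh4 difference was 0.36, with a limma adjusted p of 0.619, and that of Myh8 was larger at 0.40.

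By region, 42 of the 44 tested Myh4 regions were higher on average in iMSBmal1KO, with a median of 0.70. Without Vehicle 4 these were 41 of 44 and 0.38, where 54.3% of all tested regions were positive and their median was 0.04. The count at an unadjusted p under 0.05 then went from 15 to 6, and the share of all tested regions from 6.59% to 4.43%. The smallest p of the gene was in intron 14 (chr11:67249071-67249200), with 22.4, 14.4, 16.5 and 12.5 in Vehicle and 34.7, 40.1, 33.4 and 23.8 in iMSBmal1KO. All 4 iMSBmal1KO values lay above the Vehicle values, as in 5 of the 44 tested Myh4 regions and 3.62% of all tested regions. The log2 difference in this region was 0.97 ± 0.30 (limma adjusted p = 0.388). The largest negative difference of Myh4 was upstream of the start (chr11:67237049-67237138), at -0.24 ± 0.35 (limma adjusted p = 0.83). By section, coding exons differed by 0.70 ± 0.25 (limma adjusted p = 0.474) and introns by 0.57 ± 0.23 (0.487), while regions listed at the transcription start differed by 0.06 ± 0.32 (0.955). Over all 8 genes, 19 of 27 pairs of gene and section were tested and 0 passed, against 0.108% of all pairs.

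In the promoter sum of Myh4 the difference was smaller than over the gene, a contrast that was not tested. That sum also takes in regions near another listed start inside the gene, the transcript Myh4-202, which count in the gene sum too. The region across the upstream start (chr11:67237500-67237890) differed by 0.17 ± 0.23 (limma adjusted p = 0.817). The promoter signal of Myh4 was 933, 810, 612 and 422 in Vehicle and 780, 878, 629 and 838 in iMSBmal1KO, so the groups overlapped. The log2 difference was 0.22 ± 0.20 (limma adjusted p = 0.643 over 19152 promoters, of which 0.0783% passed). It was 0.0036 without Vehicle 4 and at most 0.38 under the other alternatives. The signal of the listed Myh4 regions relative to the region across the start was 2.38, 2.41, 3.34 and 1.98 in Vehicle and 3.93, 3.36, 3.20 and 3.51 in iMSBmal1KO. Vehicle 3 overlapped the iMSBmal1KO range, and this ratio was not tested.

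Myh1, next to Myh4, showed no such difference in level. Its summed signal was 620, 588, 509 and 391 in Vehicle and 571, 555, 496 and 561 in iMSBmal1KO, a log2 difference of 0.07 ± 0.16 (limma adjusted p = 0.891) whose sign turned under other scalings and without Vehicle 4. Its tested regions split evenly, 4 positive and 4 negative. The smallest p was at coding exon 33 (chr11:67220569-67220781), with 15.99, 14.4, 20.3 and 34.4 in Vehicle and 11.1, 18.4, 8.35 and 8.78 in iMSBmal1KO, groups that overlapped (log2 difference -0.80 ± 0.37, limma adjusted p = 0.531). The start region of Myh1 differed by 0.41 ± 0.34 (limma adjusted p = 0.687). Within each library the ratio of Myh1 over Myh4, which no scaling factor can move, was -1.37, -1.24, -1.21 and -0.62 in Vehicle and -1.77, -1.83, -1.46 and -1.77 log2 units in iMSBmal1KO. The 2 groups did not overlap, with nearest values of -1.37 (Vehicle 1) and -1.46 (iMSBmal1KO 3), and the means differed by -0.59. How often ratios of other gene pairs separate was not computed. As the ratio of Myh1 over Myh4 was set up among these genes with earlier results known, no p is given.

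**Figure D3:**
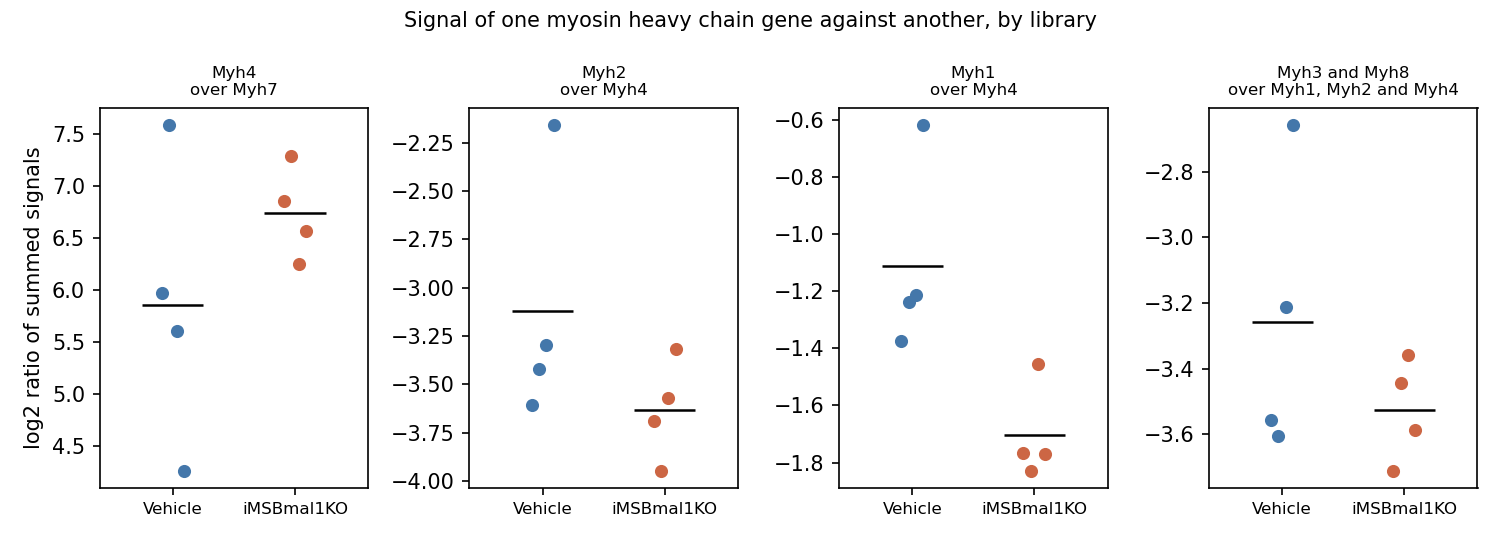
Log2 ratio of the summed signals of myosin heavy chain genes within each library, with points for libraries and bars for group means. For Myh1 over Myh4 the Vehicle points lie between -1.37 and -0.62 and the iMSBmal1KO points between -1.83 and -1.46, while the other 3 ratios overlap between groups.

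Myh2, the IIa gene, had a summed signal of 129 ± 6.30 in Vehicle and 146 ± 33.9 in iMSBmal1KO (log2 difference 0.15 ± 0.18, limma adjusted p = 0.766). All 4 of its tested regions had positive differences. The largest, in coding exon 10 (chr11:67178333-67178484), had 11.7, 3.08, 2.54 and 3.13 in Vehicle and 10.3, 12.5, 10.7 and 13.8 in iMSBmal1KO, so that Vehicle 1 lay within the other group (1.28 ± 0.64, limma adjusted p = 0.553). Its introns summed to 24.5, 29.8, 27.96 and 21.9 in Vehicle and 40.2, 41.8, 33.4 and 36.4 in iMSBmal1KO. These groups did not overlap, yet the difference of 0.53 ± 0.24 did not pass (limma adjusted p = 0.506). The share of all gene and section pairs whose groups separate was not computed. The ratio of Myh2 over Myh4 was -3.12 ± 0.65 in Vehicle and -3.63 ± 0.26 in iMSBmal1KO, with overlap.

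The slow gene Myh7 had very low signal in both groups. Its 3 regions summed to 25.6, 7.19, 24.1 and 31.3 in Vehicle and 16.7, 12.5, 17.9 and 20.1 in iMSBmal1KO, a log2 difference of -0.22 ± 0.39 (limma adjusted p = 0.847). Without Vehicle 4 it was -0.0043 and without Vehicle 2 it was -0.66 (limma adjusted p = 0.289), so its size rested on single libraries. Its regions held 7 to 39 read equivalents per library. The ratio of Myh4 over Myh7 was 5.86 ± 1.37 in Vehicle and 6.75 ± 0.44 in iMSBmal1KO, and the groups overlapped.

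Of the 4 testable promoters Myh7b had the difference of largest size, and its direction was down in iMSBmal1KO. Its promoter signal was 39.4, 41.1, 48.3 and 53.2 in Vehicle and 27.8, 23.4, 23.9 and 20.1 in iMSBmal1KO. Every iMSBmal1KO library lay below every Vehicle library, but the share of all promoters that separate in this way was not computed. The log2 difference was -0.91 ± 0.26, with an unadjusted p of 0.00143 and a limma adjusted p of 0.247. Over the alternatives the adjusted p ran from 0.053 to 0.789. Most of this signal lay away from the main start, near a listed start inside the gene's downstream part, the transcript Myh7b-202. The region there (chr2:155628450-155628680) had 21.3, 12.3, 19.7 and 31.3 in Vehicle and 10.7, 7.53, 8.35 and 6.27 in iMSBmal1KO. Again the groups did not overlap, as in 1.87% of all tested regions in the lower direction. The difference was -1.22 ± 0.36 (limma adjusted p = 0.349). The upstream window with CACGTG printed above held no region at all. In coding exon 12 (chr2:155620001-155620167) the direction was opposite, with 45.8, 49.3, 41.3 and 15.6 in Vehicle and 63.3, 56.0, 52.5 and 51.4 in iMSBmal1KO (0.66 ± 0.32, limma adjusted p = 0.542). The groups did not overlap there either, as in 3.62% of all tested regions in the higher direction. Without Vehicle 4 the difference in exon 12 was 0.29 (limma adjusted p = 0.820). Summed over the gene, Myh7b differed by -0.06 ± 0.16 (limma adjusted p = 0.904).

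Neither developmental gene passed the threshold. Myh3, the embryonic gene, had a summed signal of 146 ± 9.09 in Vehicle and 164 ± 27.2 in iMSBmal1KO (0.15 ± 0.17, limma adjusted p = 0.749). Its region in intron 10 (chr11:67085617-67085784) had 4.26, 19.5, 11.4 and 6.25 in Vehicle and 20.1, 37.6, 17.9 and 13.8 in iMSBmal1KO, with overlap (1.14 ± 0.43, limma adjusted p = 0.481). Myh8, the perinatal gene, had 44.8, 27.7, 44.5 and 43.8 in Vehicle and 53.5, 40.1, 47.7 and 64.0 in iMSBmal1KO. Of the latter 3 lay above all Vehicle libraries, and the difference was 0.35 ± 0.24 (limma adjusted p = 0.609). Its promoter signal differed by 0.16 ± 0.37 (limma adjusted p = 0.870). The share of developmental against adult fast signal was -3.26 ± 0.44 in Vehicle and -3.52 ± 0.16 log2 units in iMSBmal1KO.

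Myh13, the extraocular gene, carried its clearest signal inside the gene, at intron 20 (chr11:67350546-67350703), with 24.5, 47.3, 33.0 and 21.9 in Vehicle and 53.5, 56.9, 37.0 and 50.2 in iMSBmal1KO. The groups overlapped and the difference was 0.67 ± 0.29 (limma adjusted p = 0.516). The abutting region in coding exon 20 (chr11:67350406-67350545) differed by -0.21 ± 0.31 (limma adjusted p = 0.837). The summed signal was 74.6 ± 6.72 in Vehicle and 89.1 ± 16.6 in iMSBmal1KO (0.24 ± 0.20, limma adjusted p = 0.665).

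Along the cluster, the regions between the genes were compared in the same way. Of the 108 regions between or beside the genes 69 were tested and 0 passed, against 0.0881% of all tested regions. Between Myh3 and Myh2, 19 of 37 tested regions were positive, with a median of 0.01. Between Myh1 and Myh4 these were 13 of 15 and 0.23, and between Myh4 and Myh8 they were 15 of 15 and 0.49. Of all tested regions 62.0% were positive, with a median of 0.12. Without Vehicle 4 the 3 intervals had 12 of 37, 7 of 15 and 10 of 15 positive, with medians of -0.08, -0.02 and 0.17. Over all tested regions these were then 54.3% and 0.04. The strongest region downstream of Myh4 (chr11:67261967-67262698), named after its values were seen, had 937, 886, 468 and 381 in Vehicle and 784, 1088, 1101 and 982 in iMSBmal1KO, groups that overlapped (0.66 ± 0.26, limma adjusted p = 0.499). The difference between intervals was not tested.

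**Figure D4:**
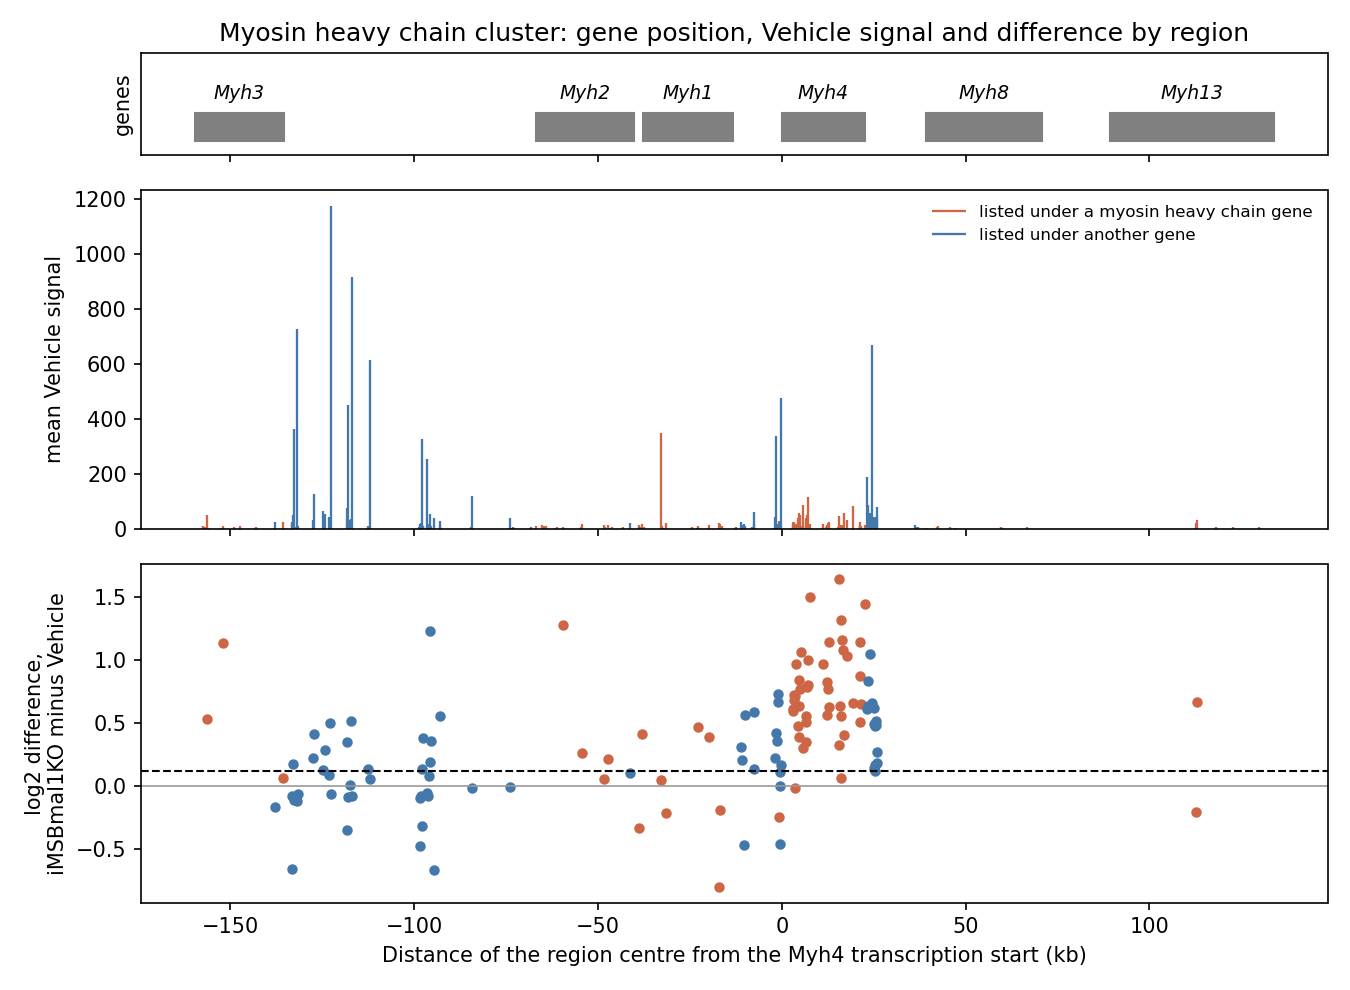
Map of the chromosome 11 cluster by distance from the Myh4 start in kb, with gene positions (top), mean Vehicle signal per region (middle) and log2 difference between iMSBmal1KO and Vehicle for tested regions (bottom). The tallest Vehicle signals lie between Myh3 and Myh2, 42 of the 44 tested Myh4 regions lie above 0, and the dashed line is the median of all tested regions, 0.12.

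Other genes of the contractile apparatus and its control gave 0 calls. Among 10 fast sarcomere genes 8 had positive differences in summed signal, with a median of 0.06, where the median of all genes was 0.11. A median above 0 means that most genes were positive, and their exact share was not computed. Myl1, a fast light chain, was the furthest at 0.51 (limma adjusted p = 0.50), and Tnnt3, the fast troponin T, stood at -0.03 (0.955). Among 9 tested slow sarcomere genes 7 were positive, with a median of 0.16, including Myoz2 at 0.46 (limma adjusted p = 0.511) and Myl3, the slow ventricular light chain, at -0.24 (0.642). The 3 tested developmental and cardiac sarcomere genes had a median of 0.01, and the 5 other myosin heavy chain genes, such as nonmuscle Myh9 and Myh10, a median of -0.07. Of 20 regulators of myosin genes 15 were positive, with a median of 0.09. Mef2c, a MEF2 factor, stood at 0.27 (limma adjusted p = 0.552), Prox1, tied to slow fibres, at 0.01 (0.983), and Sox6, a repressor of slow genes, at 0.10 (0.805).

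Vehicle 4 was also the lowest library for fibre genes in general. The summed promoter signal of the 8 myofibre markers was 11544 in Vehicle 4, the Vehicle range reaching 19703, against 14906 to 18168 in iMSBmal1KO. That of the fast sarcomere genes was 12626 in Vehicle 4, with a Vehicle maximum of 21005, against 15687 to 19341. Endothelial markers summed to 126 to 165 in Vehicle and 140 to 188 in iMSBmal1KO, with 5 of 5 having a promoter region. Fibro-adipogenic markers summed to 400.4 to 640.1 and 457.9 to 668.2 (5 of 5), satellite cell markers to 95.9 to 139 and 96.6 to 115 (3 of 5) and smooth muscle and pericyte markers to 149 to 178 and 131 to 210 (4 of 5). Macrophage markers summed to 12.5 to 18.5 and 16.3 to 19.1 (3 of 5), Schwann markers to 203 to 383 and 345 to 468 (3 of 4), and erythroid markers to 8.26 to 23.6 and 11.6 to 37.0 (1 of 3). Cardiac markers summed to 4.11 to 15.6 and 2.51 to 10.0 (1 of 4). Vehicle 4 was also the lowest Vehicle library for Schwann markers (203), macrophage markers (12.5) and the other myosin heavy chains (2539). It was not the lowest for endothelial, fibro-adipogenic, satellite cell, smooth muscle and pericyte, erythroid or cardiac markers. None of the marker lists held a gene past the threshold, and the part of depth or cell makeup in the Myh4 values was not tested.

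The genes whose promoter signal moved most like the summed Myh1, Myh2 and Myh4 promoters over the 8 libraries were Oxsr1 (r = 0.991), Ankrd24 (0.990), Gm12879 (0.990), Kif26b (0.989) and Gm44702 (0.986). These are Pearson correlations of log2 promoter signal given as a description. Libraries share depth and scaling, and 1615 of 19332 genes exceeded 0.9.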

How the data were processed

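Open chromatin was measured by ATAC-seq in 8 gastrocnemius libraries, 4 Vehicle and 4 iMSBmal1KO, grouped by their titles. The authors deposited 1 table of 489637 regions with a signal per library and a gene annotation, and this deposited signal was used as it stands. Per the submitters' processing notes, Partek, Bowtie2, MACS2 and DESeq2 were used and the builds mm10 and GRCm39 are named. The role, version and order of these tools, and the handling of duplicates, of reads that match several genes and of the transposase offset, are not given in the sources used here. Positions were taken as GRCm38, since 99.9% of 22781 matched genes overlapped their RefSeq GRCm38.p6 gene. At least 98.3% of the non-zero values in each library were whole multiples of a constant within 0.02 reads, which gave read equivalents for depth, but not all values were, so no test on counts was run.

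Signal was summed per gene, per promoter (regions within 1000 bp of any start listed for the gene) and per gene and section, with exon and intron numbers dropped. Each level was fitted over the whole table with limma 3.58.1 (R 4.3.3), trend and robust moderation on log2(signal + 1), group as the only term, two-sided, Benjamini-Hochberg adjustment and a threshold of 0.05. Log2 differences are on that scale, where the added 1 shrinks those of weak regions, while a library near 0 can enlarge them. In coding exon 11 of Myh4 (chr11:67245546-67245672), with 0 in Vehicle 4, the log2 difference was 1.50 and the ratio of group means 1.77. The median over the 66 tested member regions was 0.60, and 0.45 with a pseudocount of 5. Features needed a signal worth 10 reads at the median library size in 4 libraries and 15 read equivalents in all. The fit was tested on simulated data. Summaries used pandas 2.3.3 under Python 3.11.15, and plots matplotlib 3.10.9. Errors are SD over 4 libraries, or SE of a fitted difference.

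The members, the gene lists (fast, slow, developmental and cardiac sarcomere, regulators, other myosins and 8 cell type marker lists besides myofibres) and the motifs were chosen with earlier results of these data known. A gene of the regulator list, counted in its totals, is not reported here by itself. By rule were named the regions past the threshold, the strongest start region and the smallest p in each direction per gene, the 3 strongest other regions of the cluster and the 5 genes most like the fast promoters. Replicate numbers did not pair the libraries. Alternatives were 2 other pseudocounts, 2 other scalings, no filter, merged regions, 2 other promoter definitions, the replicate number as a block and leaving out each library.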

Additional observations from a re-analysis of the deposited data

Results flagged for a closer look

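Of the values tested, 6 stood apart from the other 3 libraries of their group by Dixon's test for a single outlying value, out of 68 groups of 4 values tested, where chance alone flags about 3.4. The summed Myh4 signal of iMSBmal1KO 3 was 1361, against 1913 to 1972 in the other iMSBmal1KO libraries. In the same library the summed Myh13 signal was 64.4, against 95.3 to 101, and the log2 ratio of Myh1 over Myh4 was -1.46, against -1.83 to -1.77. Vehicle 2 had a summed Myh8 signal of 27.7, against 43.8 to 44.8. Vehicle 1 had 11.7 at the Myh2 region in coding exon 10 (chr11:67178333-67178484), against 2.54 to 3.13. Vehicle 1 also had 1178 at the start of 2310065F04Rik (chr11:67120745-67121234), against 791 to 854. No explanation was tested for any of them.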

How the results depend on the processing

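Over 30 results and 395 alternative values, 386 were labelled unchanged. For fitted differences this meant the same direction and side of the threshold. For counts it meant an equal count, for ratios a shift below the pooled SD of the groups, and for the promoter order all 15 pairs kept. In all alternatives 0 member regions, 0 gene and section pairs and 0 surrounding regions passed. At an unadjusted p under 0.05, limma had 20 of 66 member regions, 18 higher and 2 lower, where 6.59% and 2.63% of all tested regions were. Over the alternatives with the same 66 regions this count was lowest, at 9, without Vehicle 4 and without iMSBmal1KO 4. It was highest, at 22, with a pseudocount of 5. The summed Myh1 difference, 0.07, turned to -0.058 with total nuclear reads and to -0.082 with cyclic loess, and ran from -0.066 (without Vehicle 4) to 0.16 on leaving out a library. On leaving out a library, the promoter difference ran from -0.029 (without iMSBmal1KO 4) to 0.33 for Myh1 and from -0.16 (without Vehicle 2) to 0.33 for Myh8. That of the Myh4 region at chr11:67237049-67237138 ran from -0.50 to 0.013 (without iMSBmal1KO 3). The cause was not tested. Of the 15 pairs of promoters, 13 kept their Vehicle order on signal per kb of gene, and 13 to 15 on leaving out a library. Without Vehicle 4 the mean log2 ratio differences were -0.43 for Myh1 over Myh4, -0.19 for Myh2 over Myh4 and 0.35 for Myh4 over Myh7, against -0.59, -0.51 and 0.89 with it. With the replicate number as a block the summed Myh4 difference was 0.66 (limma adjusted p = 0.165) and that of the Myh7b promoter -0.91 (limma adjusted p = 0.073), and no call changed; same-numbered libraries correlated at -0.06, 0.14, 0.02 and 0.03. A test on counts was not run, because whole reads could not be recovered for all values. No region of Myh7 or Myh8 had enough signal to be tested.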
